A study of Homo sapiens with 6 samples.

Results

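CXC chemokines are small secreted proteins that attract leucocytes, and their messenger RNAs were followed here in U87, an established human glioblastoma cell line, with and without a knockout of TLR2. The genes described are 10: CXCL1, CXCL2, CXCL3, CXCL5, CXCL6, CXCL8, CXCL10, CXCL11, CXCL12 and CXCL16. They were taken by symbol from a table of 27911 genes that could be named, each by its RefSeq transcript accession with the highest base mean, the average normalized read count of the 6 libraries. The tested cells, labelled EGFR+vIII TLR2 KO, gave 3 libraries, and the cells they were set against, labelled EGFR+vIII, gave 3 libraries. Both groups therefore carry EGFR, the epidermal growth factor receptor, and vIII, its constitutively active deletion mutant. The labels do not say how the knockout was made, whether it is 1 clone or several, or whether replicate libraries stem from separate cultures. The p-values therefore reflect the spread of these libraries, and that spread may be technical.

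The values come from the authors' own comparison of the groups, which lists each accession without a value per library, so that levels per library are not shown. Fold changes are given as EGFR+vIII TLR2 KO over EGFR+vIII, the order in which that comparison is named. The order could not be checked against the targeted gene, because all 8 accessions of TLR2 are listed at 0 in the authors' deposited table. Should the order be the opposite, each direction below would be the opposite too. The base means of the authors' deposited table sum to 11240272 normalized reads per library over 67933 accessions, of which 10303 carry an adjusted p.

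As background, the family falls into groups by structure and use. CXCL1, CXCL2, CXCL3, CXCL5, CXCL6 and CXCL8 carry a glutamate-leucine-arginine (ELR) motif before the CXC cysteines, signal through the receptors CXCR1 or CXCR2, attract neutrophils and promote vessel growth. They are textbook targets of the transcription factor NF-kB, which Toll-like receptors and interleukin-1 activate. CXCL10 and CXCL11 lack the ELR motif, bind CXCR3 on T and natural killer cells and are induced by interferons. CXCL12 is made without a stimulus in many tissues and binds CXCR4 and ACKR3, and CXCL16 is made as a transmembrane protein that binds CXCR6 and is shed by the proteases ADAM10 and ADAM17. In glioblastoma, CXCL8 and CXCL12 are known for their links to vessel growth and to invasion.

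Promoters are shown for 8 members, the 5 that rose and 3 that are listed at 0, since all 8 hold the same short element, and those of the 6 ELR chemokines come first. RefSeq promoters of GRCh38.p14, the same build as the hg38 of the submitters' processing notes, were found for 9 of the 10 genes, CXCL16 being the exception. The 250 bases before each transcription start were searched on both strands for the letters GGAATTTCC, a strong NF-kB element, for its looser form GGNNNTTCC, which holds the strict form, and for TTTCNNTTT, the core of an interferon-stimulated response element. Each line below gives the 120 bases before the start, 5′ to 3′ on the gene's own strand, with the letters that match a motif in capitals.

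CXCL8 (chr4:73740449-73740568, plus strand): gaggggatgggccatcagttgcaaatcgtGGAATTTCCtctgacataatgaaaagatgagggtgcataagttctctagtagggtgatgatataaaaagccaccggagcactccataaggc
CXCL5 (chr4:73998678-73998797, minus strand): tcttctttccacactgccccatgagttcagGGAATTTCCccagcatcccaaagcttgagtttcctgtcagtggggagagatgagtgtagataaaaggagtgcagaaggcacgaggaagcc
CXCL6 (chr4:73836558-73836677, plus strand): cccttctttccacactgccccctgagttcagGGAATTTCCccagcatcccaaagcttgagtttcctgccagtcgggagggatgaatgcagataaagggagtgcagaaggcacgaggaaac
CXCL3 (chr4:74038690-74038809, minus strand): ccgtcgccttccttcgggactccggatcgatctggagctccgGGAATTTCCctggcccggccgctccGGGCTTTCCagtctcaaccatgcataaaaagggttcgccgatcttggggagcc
CXCL2 (chr4:74099196-74099315, minus strand): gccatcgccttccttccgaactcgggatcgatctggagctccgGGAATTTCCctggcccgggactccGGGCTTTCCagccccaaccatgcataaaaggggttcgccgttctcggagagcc
CXCL1 (chr4:73869273-73869392, plus strand): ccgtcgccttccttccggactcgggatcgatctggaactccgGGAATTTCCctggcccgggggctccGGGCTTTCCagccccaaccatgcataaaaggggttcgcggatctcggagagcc

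For the interferon-inducible genes, whose matches reach further out, all 250 bases are given in the same way.

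CXCL10 (chr4:76023498-76023747, minus strand): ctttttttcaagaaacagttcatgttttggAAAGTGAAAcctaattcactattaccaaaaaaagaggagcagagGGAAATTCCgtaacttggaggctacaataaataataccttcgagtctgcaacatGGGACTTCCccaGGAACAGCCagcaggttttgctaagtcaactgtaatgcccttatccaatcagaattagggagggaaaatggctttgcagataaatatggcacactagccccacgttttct
CXCL11 (chr4:76036071-76036320, minus strand): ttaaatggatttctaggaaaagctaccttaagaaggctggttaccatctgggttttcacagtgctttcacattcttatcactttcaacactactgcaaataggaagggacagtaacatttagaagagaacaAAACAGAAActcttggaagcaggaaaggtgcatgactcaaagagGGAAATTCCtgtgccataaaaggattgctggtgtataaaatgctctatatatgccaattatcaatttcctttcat

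The strict NF-kB letters stood in 8 of the 9 promoters, against 117 of 27303 RefSeq promoters (0.429%) searched over the same length. The motif was picked with the CXC promoters in view, and the 117 include the 8, so the contrast is a description. Nor are the 8 independent: the 120 bases were 93.4% identical between CXCL1 and CXCL2 and 90.9% between CXCL5 and CXCL6. In CXCL1, CXCL2 and CXCL3 the strict match began at positions -78, -77 and -78 from the transcription start, and a further looser match began at -53. In CXCL5, CXCL6 and CXCL8 it began at -90, -89 and -91. In CXCL10 and CXCL11 the strict letters lay on the other strand, with first positions -176 and -75, and CXCL10 held further looser matches at -122 and -110. The looser form alone is common, being held by 4678 of the promoters (17.1%). The interferon element was matched in CXCL10 and CXCL11 and in none of the other 7, against 9.28% of all promoters. CXCL12 matched no motif. A match in letters does not show that a factor binds there.

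Of the 10 genes, 5 could be tested and all 5 were higher in EGFR+vIII TLR2 KO cells: CXCL5, CXCL10, CXCL8, CXCL3 and CXCL2. The count is 5 higher and 0 lower, by the authors' deposited table at an adjusted p under 0.05, beside 11.6% of all tested accessions that were higher and 11.9% that were lower. All 5 were also at least 2-fold higher, beside 3.31% of tested accessions that were higher by that much. In bulk RNA, fewer cells of a type and less RNA per cell cannot be told apart. The median log2 fold change of the 5 tested genes was 1.958, beside 0.02 over all tested accessions of the authors' deposited table. The other 5 genes gave no test: CXCL1, CXCL6, CXCL11 and CXCL12 are listed at 0, and CXCL16 has too few reads. The count therefore covers 5 genes and not the family. The level of each group is given as the base mean split by the deposited fold change, in normalized reads per library. The deposited fold changes are drawn towards 0 where reads are few, so that this split understates the gap between groups: 1482 accessions worth 1 read in 1 library have log2 fold changes of no more than 0.04 in size.

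**Figure D1:**
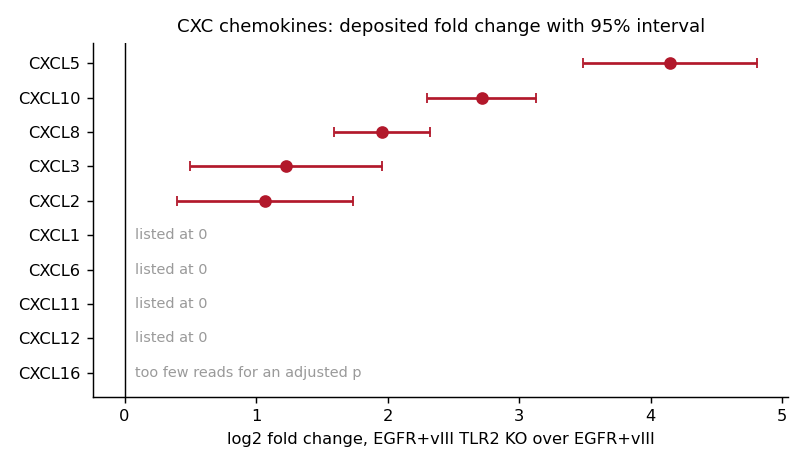
Log2 fold change of each CXC chemokine, EGFR+vIII TLR2 KO over EGFR+vIII, from the authors' deposited table, with its 95% interval. The 5 tested genes lie between 1.07 and 4.15 with intervals above 0, and the 5 without a test are named as listed at 0 or as having too few reads.

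CXCL8, the neutrophil attractant also known as interleukin-8, was the most abundant ELR chemokine by reads, with a base mean of 274.0 in the authors' deposited table. Its implied level was 436 normalized reads per library in EGFR+vIII TLR2 KO cells and 112 in EGFR+vIII cells. The log2 fold change was 1.958 (SE 0.19, 95% interval 1.59 to 2.33, adjusted p = 8.94e-24 in the authors' deposited table, DESeq2 Wald test with Benjamini-Hochberg adjustment), which is 3.89-fold. CXCL8 has a further accession, which is listed at 0.

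CXCL5, a neutrophil attractant that acts through CXCR2, showed the largest difference among the 5 tested genes. Its base mean was 65.4 in the authors' deposited table, and its implied level was 124 normalized reads per library in EGFR+vIII TLR2 KO cells and 6.99 in EGFR+vIII cells. The log2 fold change was 4.15 (SE 0.34, 95% interval 3.48 to 4.81, adjusted p = 1.02e-32 in the authors' deposited table), or 17.7-fold. This is rank 19 among the 10303 tested accessions, and among 234 others within 10% of its base mean only 2 had a larger value, with a highest of 4.51. CXCL5 thus stands near the largest fold change that accessions of its abundance reach in the table.

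CXCL2 and CXCL3, close relatives of CXCL1 that are induced early in inflammation, were higher by smaller amounts and from few reads. CXCL2 had a base mean of 34.4 in the authors' deposited table, 207 normalized reads over all 6 libraries, with an implied level of 46.6 per library in EGFR+vIII TLR2 KO cells and 22.2 in EGFR+vIII cells. Its log2 fold change was 1.07 (SE 0.34, 95% interval 0.40 to 1.73, adjusted p = 0.00945 in the authors' deposited table). CXCL3 had a base mean of 18.2 in the authors' deposited table, 109 normalized reads over all 6 libraries, with an implied level of 25.5 per library in EGFR+vIII TLR2 KO cells and 10.9 in EGFR+vIII cells. Its log2 fold change was 1.23 (SE 0.37), or 2.34-fold (95% interval 1.41- to 3.89-fold, adjusted p = 0.00603 in the authors' deposited table). Both calls were lost when the null was a change of up to 1.5-fold, under which 2.1% of tested accessions were higher and 2.23% lower (adjusted p = 0.99 for CXCL2 and 0.617 for CXCL3), when each Wald score was divided by 1.75, the central spread of all such scores (0.415 and 0.364) and relative to genes within 1 Mb (0.288 and 0.186). CXCL5, CXCL8 and CXCL10 kept theirs in all 3. The intervals and all 3 checks use the deposited fold changes, which are drawn towards 0 where reads are few. The lost calls therefore do not show that CXCL2 and CXCL3 changed little.

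CXCL1 and CXCL6 complete the ELR group, and neither has a value. CXCL1, the attractant first described as a melanoma growth factor, has 2 accessions, and both are listed at 0 in the authors' deposited table. CXCL6, the closest relative of CXCL5, has 1 accession, which is listed at 0. Over the 10 genes, 4 of 5 with a single accession were tested, against 1 of 5 with several, and the sources used here do not say how reads shared between accessions were counted. CXCL6 is the gene with a single accession that is listed at 0.

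CXCL10, the T cell attractant induced by interferon, had a base mean of 187 in the authors' deposited table and the smallest adjusted p of the family. Its implied level was 325 normalized reads per library in EGFR+vIII TLR2 KO cells and 49.5 in EGFR+vIII cells. The log2 fold change was 2.71 (SE 0.21, 95% interval 2.30 to 3.13, adjusted p = 8.67e-36 in the authors' deposited table), or 6.56-fold. Among 184 other accessions within 10% of its base mean, 1 had a larger fold change. CXCL11, which shares the receptor CXCR3, has 2 accessions that are both listed at 0, so the interferon-inducible group rests on CXCL10.

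CXCL12 has 5 accessions, all listed at 0 in the authors' deposited table. CXCL16 has 2 accessions, 1 at 0 and 1 with a base mean of 0.856, which is 5.14 normalized reads over all 6 libraries. The accession with reads was paired with CXCL16 through GENCODE release 29, as the RefSeq gene table does not list it. Its log2 fold change was 0.11 (SE 0.18, unadjusted p = 0.551, and none after adjustment, by the authors' deposited table), and a difference was not detectable from so few counted reads. How reads shared between the 2 accessions were counted is not known, so the low count does not show low expression.

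**Figure D2:**
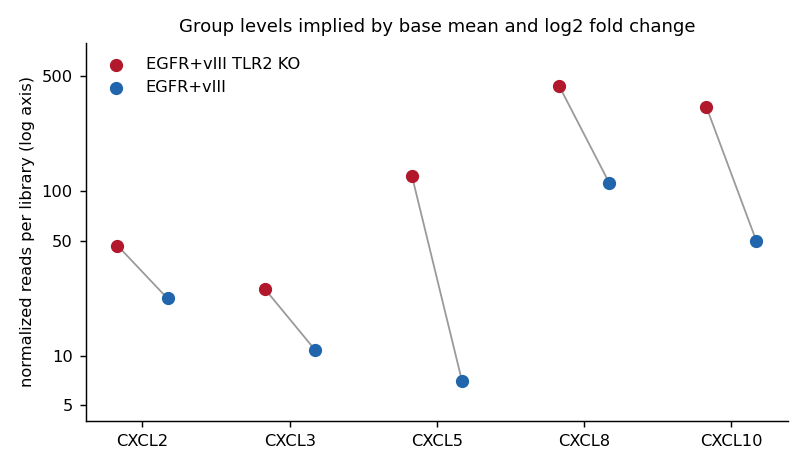
Normalized reads per library implied by the base mean and fold change of the authors' deposited table, on a log axis, for the 5 tested CXC chemokines. Within each gene the EGFR+vIII TLR2 KO point stands left of the EGFR+vIII point and is joined to it by a line, and the gap is widest for CXCL5 (124 and 6.99).

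Levels can be compared between genes only per transcript length. Per kilobase of the paired GENCODE transcript, EGFR+vIII TLR2 KO cells had implied levels of 276 for CXCL10, 256 for CXCL8, 48.7 for CXCL5, 38.3 for CXCL2 and 23.7 for CXCL3. Per kilobase in EGFR+vIII cells, the implied levels were 65.8 for CXCL8, 42.1 for CXCL10, 18.3 for CXCL2, 10.1 for CXCL3 and 2.75 for CXCL5. On this scale CXCL5 was the lowest of the 5 in EGFR+vIII cells and the third in EGFR+vIII TLR2 KO cells. These levels carry no error of their own, since the table gives none per group. Of the 5, CXCL8 alone has several listed transcripts, and how reads shared between transcripts were counted is not known. The place of CXCL8 beside the other 4 is therefore uncertain. The interval of the fold change of CXCL5 lies above those of the other 4, while those of CXCL10 and CXCL8 touch and those of CXCL8, CXCL3 and CXCL2 overlap. Intervals that overlap do not show that fold changes are alike, and differences between the genes were not tested.

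**Figure D3:**
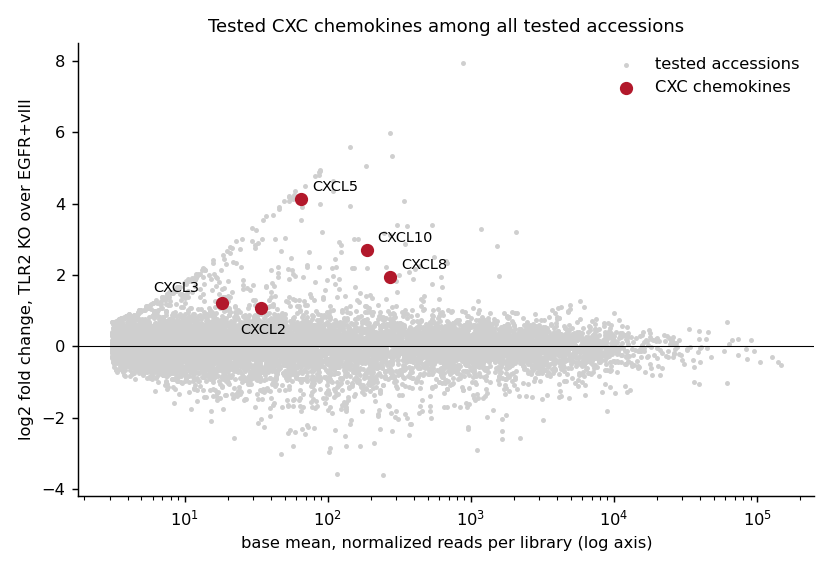
Log2 fold change, EGFR+vIII TLR2 KO over EGFR+vIII, against base mean on a log axis for the 10303 tested accessions of the authors' deposited table (grey), with the 5 tested CXC chemokines in red. The 5 lie above 1, with CXCL5 at the upper edge reached by accessions of its base mean.

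Several members are similar enough to share reads. Coding sequences were 93.5% identical between CXCL1 and CXCL2, 94.4% between CXCL2 and CXCL3, 90.7% between CXCL1 and CXCL3, and 87.5% between CXCL5 and CXCL6. Of the 50-base windows of the CXCL2 transcript, 9.24% occur unchanged in the transcript of another CXC chemokine, and the share was 5.26% for CXCL3 and 5.73% for CXCL1. It was 0% for CXCL5, CXCL6, CXCL8, CXCL10 and CXCL11. The values of CXCL2 and CXCL3 are uncertain for that reason, by an amount that was not measured. The likeness extends to the 120 bases before the start, which were 93.4% identical between CXCL1 and CXCL2 and 90.9% between CXCL5 and CXCL6.

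The ELR messages also share AU-rich 3′ untranslated regions, a feature that marks short-lived inflammatory mRNAs. The pentamer ATTTA occurred 10 times in the 3′ untranslated region of CXCL2, 7 times in CXCL3, 11 times in CXCL5, 9 times in CXCL8, 5 times in CXCL1 and 6 times in CXCL6. It occurred 1 time in each of CXCL10, CXCL11 and CXCL16 and 4 times in CXCL12. Over the transcripts of 17287 genes, 26.6% had at least 4, and over those of 7452 tested genes 35.9%. The counts were not scaled by the length of the region, which ran from 673 bases in CXCL3 to 3163 in CXCL12. The longer form TTATTTATT was found in CXCL1, CXCL2, CXCL3 and CXCL8, against 6.71% of the 17287 genes and 8.91% of the tested ones. The members that rose are thus found with and without this feature, CXCL10 having 1 pentamer and no longer form.

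The genes lie in 2 stretches of chromosome 4, apart from CXCL12 on chromosome 10 and CXCL16 on chromosome 17. The first stretch runs from CXCL8 to CXCL2 over 359 kb (chr4:73740569-74099195, GRCh38) and holds 9 chemokine genes, of which 4 were tested. Of the 12 other protein-coding genes in or within 1 Mb of it, 4 were tested: MTHFD2L, a mitochondrial folate enzyme, with a log2 fold change of 0.62 (adjusted p = 0.000259), EREG, an EGFR ligand, with 0.73 (5.71e-26), BTC, another EGFR ligand, with 0.48 (0.437), and PARM1 with -2.02 (1.21e-46) in the authors' deposited table. Their median was 0.55, and only 4 genes set it. Relative to that median, the log2 fold change was 3.597 for CXCL5, still called, and 0.68 for CXCL3 and 0.52 for CXCL2, neither called. Within 1 Mb of CXCL8 only 2 of the 4 genes lie, MTHFD2L and EREG, with a median of 0.67, relative to which CXCL8 had 1.28 and was still called. These calls used the SE of each chemokine alone and took the median of its neighbours as free of error.

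The second stretch, from CXCL9 to CXCL11, spans 34.8 kb (chr4:76001275-76036070) and holds 3 chemokine genes. Here the median log2 fold change of the 8 tested neighbours was -0.42. Of all tested accessions 11.6% rose and 11.9% fell, and of these 8 neighbours 0 rose and 4 fell, by the authors' deposited table. The 4 were PARM1, which also neighbours the first stretch, SCARB2, a lysosomal membrane protein (-0.33, adjusted p = 0.0129), STBD1, a glycogen-binding protein (-0.92, adjusted p = 0.00268), and SHROOM3, a regulator of cell shape (-2.03, adjusted p = 4.94e-35), by the authors' deposited table. CXCL10, in their midst, was higher by 2.71 on the log2 scale. The other 4 tested neighbours, G3BP2 (0.58), THAP6 (0.17), NAAA (-0.42) and SEPTIN11 (-0.42), did not pass. The neighbours were taken by position, and they were named after their values were seen.

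**Figure D4:**
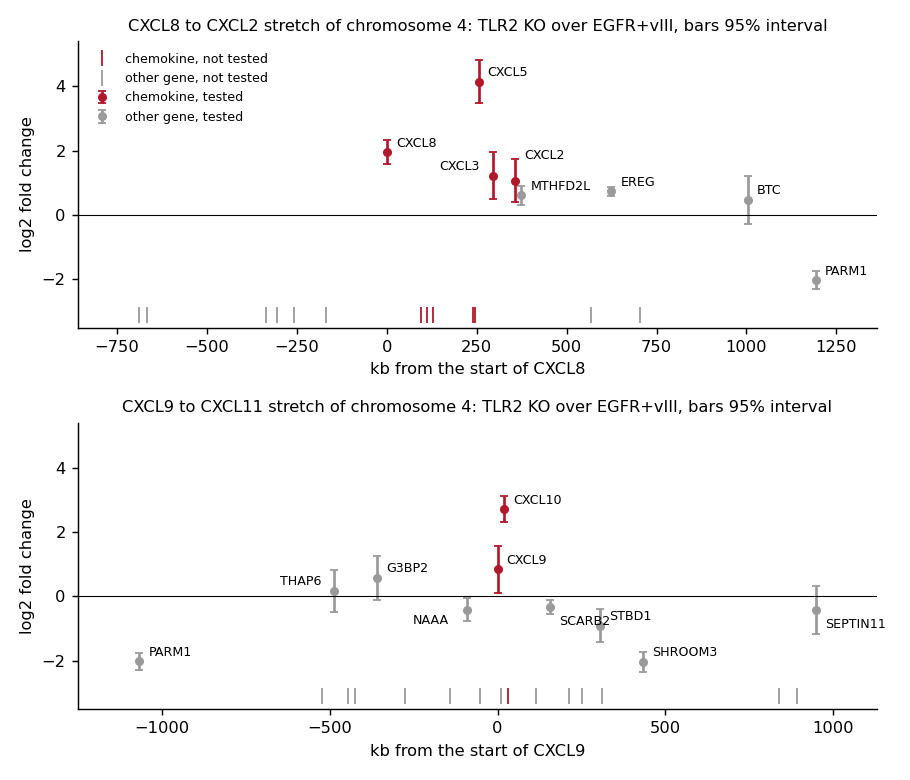
Log2 fold changes, from the authors' deposited table, along both chemokine stretches of chromosome 4, against the distance in kb from the start of CXCL8 or CXCL9, with 95% intervals as bars. Red points are tested chemokines, grey points other tested protein-coding genes, and ticks at the bottom genes without a test; in the lower panel CXCL10 at 2.71 stands among neighbours between -2.03 and 0.58.

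The rest of the CXC family gave few tests. Of 7 other CXC ligands, 5 are listed at 0 and 2 were tested, and 0 passed. CXCL9, the third CXCR3 ligand, had a log2 fold change of 0.84 (adjusted p = 0.0907, SE 0.37) at a base mean of 9.08, and CXCL14, an epithelial chemokine, had one of -0.51 (adjusted p = 0.345, SE 0.35) in the authors' deposited table. Of 10 CXC and scavenger receptors, 7 are listed at 0, among them CXCR4 with its 5 accessions, and ACKR3 has a base mean of 1.20. Only 1 of these 7 has a single listed transcript. Genes in general use with several, such as RELA and JAK1, are at 0 as well, so these zeros do not measure expression. CXCR6, the receptor of CXCL16, had a log2 fold change of -0.01 (adjusted p = 0.991, SE 0.38), and ACKR2, a scavenger of inflammatory CC chemokines, had one of -0.62 (adjusted p = 0.145, SE 0.31), both at base means of no more than 10.5 in the authors' deposited table.

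Among 22 CC, XC and CX3C chemokines, 4 were tested. Of these, 3 rose and 0 fell, beside 11.6% and 11.9% of all tested accessions, by the authors' deposited table. The 3 are monocyte attractants of a shared cluster: CCL8 rose by 1.40 (adjusted p = 0.00161, SE 0.38), CCL7 by 1.02 (adjusted p = 0.0146, SE 0.34) and CCL2 by 0.92 (adjusted p = 0.00179, SE 0.25) on the log2 scale, by the authors' deposited table. CCL26, an eosinophil attractant, had a log2 fold change of -0.46 (adjusted p = 0.236, SE 0.27), by the authors' deposited table. CCL20, like CXCL1, is listed at 0 in its 2 accessions, which does not show that it is not expressed.

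The NF-kB list, which mixes subunits and adaptors with target and feedback genes of the pathway, held 10 tested genes of 20. Of these, 7 rose and 0 fell, beside 11.6% and 11.9% of all tested accessions, by the authors' deposited table. BIRC3, an inhibitor of apoptosis and NF-kB target, rose by 3.002 (SE 0.23), TNFAIP2 by 2.40 (SE 0.12) and NFKBIZ, an atypical IkB protein required for some secondary NF-kB targets, by 1.08 (adjusted p = 0.019, SE 0.37) on the log2 scale, by the authors' deposited table. RELB, a subunit of the noncanonical pathway, rose by 0.68 (adjusted p = 0.00479, SE 0.20), NFKBIA, the feedback inhibitor, by 0.83 (adjusted p = 3.91e-19, SE 0.09), TRAF2 by 0.69 (SE 0.15) and BCL3, a nuclear cofactor, by 0.50 (SE 0.11) on the same scale, by the authors' deposited table. By the authors' deposited table, NFKB2 and TNFAIP3 have no test, with highest base means of 0.507 and 0. They have 6 and 3 listed transcripts, so these values do not show low expression. The median log2 fold change of the 10 tested genes was 0.69.

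Of the cytokines best known for inducing these chemokines, IL1B and IL1A were tested and did not pass, and neither did IL6, another cytokine of the list. IL1B, at a base mean of 4596 in the authors' deposited table, had a log2 fold change of 0.07 (SE 0.08, 95% interval -0.09 to 0.22, adjusted p = 0.643). IL1A had one of 0.41 (adjusted p = 0.29, SE 0.26) and IL6 one of -0.51 (adjusted p = 0.333, SE 0.34, base mean 4.96) in the authors' deposited table, and TNF is listed at 0. Of the 8 tested genes among 14 cytokines and receptors, 2 rose and 1 fell, beside 11.6% and 11.9% of all tested accessions. TNFRSF1B, which binds tumour necrosis factor, was higher by 2.33 (SE 0.12) and CSF2, a myeloid growth factor, by 1.39 (SE 0.38), and OSMR, the oncostatin M receptor, fell by 1.01 (adjusted p = 0.00354, SE 0.29) on the log2 scale, by the authors' deposited table. By the authors' deposited table, LIF and IL1RAP had log2 fold changes of 0.07 and -0.24, with adjusted p of 0.933 and 0.737. OSMR, IL1RAP, IL6 and LIF have 6, 11, 2 and 2 listed transcripts. Each value is that of the transcript with the highest base mean, not of the whole gene.

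Interferon signalling, which acts upstream of CXCL10, had 7 tested genes of 17. Of these, 2 rose and 1 fell, beside 11.6% and 11.9% of all tested accessions, by the authors' deposited table. SOCS1, a feedback inhibitor, rose by 1.12 (SE 0.22) and IRF2 by 0.35 (SE 0.12) on the log2 scale, by the authors' deposited table. IFNAR1, a subunit of the type I interferon receptor, fell by 0.41 (adjusted p = 1.51e-07, SE 0.07), by the authors' deposited table. IRF9 (0.31, adjusted p = 0.0909), TYK2 (-0.23, 0.0887), IRF3 (-0.39, 0.547) and IFNGR1 (-0.28, 0.688) did not pass, as log2 fold changes from the authors' deposited table. IRF3 and IFNGR1 have 9 and 3 listed transcripts, and each value is that of the transcript with the highest base mean only. The interferon genes IFNB1, IFNG and IFNL1, with 1 accession each, are listed at 0, and IRF1 has a highest base mean of 1.17 over 5 listed transcripts.

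A list of AP-1 and C/EBP factors, which act beside NF-kB at the CXCL8 promoter, also held EGR1, a zinc finger factor of neither family. It had 3 of 8 tested genes higher and 2 lower, by the authors' deposited table. Over all tested accessions, 11.6% were higher and 11.9% lower. FOS rose by 0.74 (SE 0.19), EGR1 by 0.44 (SE 0.15) and JUNB by 0.23 (SE 0.08), and FOSL2 fell by 0.43 (SE 0.10) and JUN fell by 0.25 (SE 0.07) on the log2 scale, by the authors' deposited table. CEBPD had 0.29 as its log2 fold change (adjusted p = 0.476), CEBPG one of 0.15 (0.835) and FOSB one of 0.31 (0.553), and CEBPB is listed at 0 in the authors' deposited table. CEBPB has 3 listed transcripts, so its zero does not measure expression.

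Among regulators of chemokine mRNA decay, 1 of 4 tested genes rose and 0 fell, by the authors' deposited table. The shares over all tested accessions were 11.6% and 11.9%. By the authors' deposited table, ZFP36L2, which promotes decay of AU-rich messages, rose by 0.30 (SE 0.10), while its relative ZFP36 had 0.18 as its log2 fold change (adjusted p = 0.445), and ELAVL1, a stabilizer, and KHSRP, a decay factor, had ones of -0.0027 and -0.0037 (adjusted p = 0.989 and 0.987). For ELAVL1 the 95% interval was -0.15 to 0.15 in the authors' deposited table.

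Genes of proteins that shed, cleave or hold chemokines at the cell surface changed in both directions. Of 10 tested genes 3 were higher and 4 lower, beside 11.6% and 11.9% of all tested accessions, by the authors' deposited table. DPP4, a peptidase that inactivates CXCL10, CXCL11 and CXCL12, fell by 0.59 (adjusted p = 8.38e-10, SE 0.09), by the authors' deposited table. MMP2, which cleaves CXCL12, fell by 1.06 (SE 0.24), and the heparan sulfate proteoglycans SDC2 and GPC1 fell by 1.47 (SE 0.09) and 1.02 (SE 0.09) on the log2 scale, by the authors' deposited table. MMP2 has 5 listed transcripts, and its value is that of the transcript with the highest base mean, not of the whole gene. The syndecans SDC3 and SDC4 rose by 0.99 (SE 0.25) and 0.65 (SE 0.08), by the authors' deposited table. Of the sheddases of CXCL16, ADAM17 rose by 0.28 (adjusted p = 0.00413, SE 0.08) and ADAM10 had a log2 fold change of -0.49 (adjusted p = 0.0829, SE 0.21) in the authors' deposited table.

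**Figure D5:**
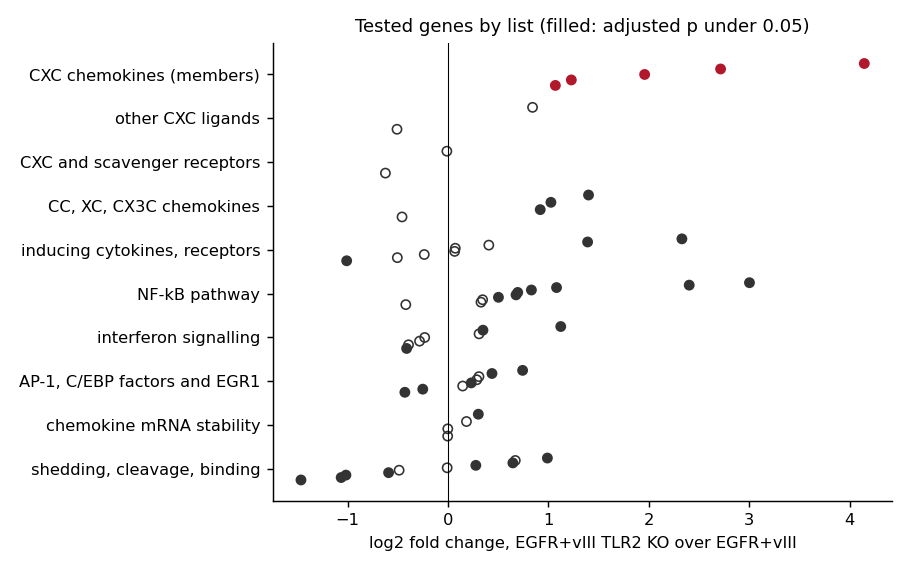
Log2 fold change, EGFR+vIII TLR2 KO over EGFR+vIII, of each tested gene in 10 lists, from the authors' deposited table; filled points have an adjusted p under 0.05. All 5 tested CXC chemokines and 7 of 10 tested NF-kB genes are filled on the higher side. The shedding, cleavage and binding list has 3 filled points higher and 4 lower, of 10 tested genes. Over all tested accessions, 11.6% were higher and 11.9% lower at that threshold.

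The labelled cell type was set against marker lists. By the authors' deposited table, the glioblastoma line list had VIM, a mesenchymal filament, at a base mean of 126476 and TNC, a matrix protein, at 90343, with the mesenchymal markers CD44 at 26.7 (8 accessions) and FN1 at 4.98 (18 accessions) and the astrocyte markers GFAP and S100B listed at 0. In it NES rose by 1.01 and CHI3L1 by 3.01, SOX2 fell by 2.45 and VIM fell by 0.29, and TNC (0.17), OLIG2 (-0.18), CD44 (-0.30) and FN1 (0.10) did not pass, as log2 fold changes of that deposited list. Of 15 leucocyte markers, 11 are listed at 0, including PTPRC, CD14 and ITGAM, and the summed implied level of the list was 11.5 normalized reads per library in EGFR+vIII TLR2 KO cells and 8.08 in EGFR+vIII cells. All 11 have more than 1 accession, and genes in general use that have several accessions, such as RELA and JAK1, are listed at 0 as well, so these zeros do not measure leucocyte content. The single one tested, LYZ, had 0.52 as its log2 fold change (adjusted p = 0.338), by the authors' deposited table. Of 7 endothelial markers, 3 were tested and 0 passed, with summed implied levels of 732 in EGFR+vIII TLR2 KO cells and 728 in EGFR+vIII cells, from KDR (log2 fold change -0.13), PECAM1 (0.49) and VWF (0.08) for the most part, while CDH5 had a base mean of 0.539 in the authors' deposited table. The part of these markers in the chemokine values was not tested.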

How the data were processed

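Total RNA of 6 U87 libraries, 3 of each group, was sequenced. The submitters' processing notes name STAR, DESeq2 and hg38; the sources used here give no versions, settings, counter or annotation release. The authors deposited 1 comparison table, whose columns, per the file headers, are a base mean (a signal in normalized reads), a log2 fold change, its standard error (SE), a Wald score, a p-value and an adjusted p. The deposited score was checked against fold change over SE (largest gap 5.39e-07). Benjamini-Hochberg adjustment of the 10303 deposited p-values gave back their adjusted p (largest gap 4.48e-07). Missing adjusted p were kept missing.

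Accessions were matched to symbols with RefSeq (GRCh38.p14), then with GENCODE 29, for 99.4% of 67933. A count test over libraries, planned for counts, could not be run on these values, and the deposited adjusted p under 0.05 was used. Group levels were computed from base mean and fold change. Genes outside the family were also read by their listed transcript with the highest base mean. For genes with several, that value may differ from the change of the whole gene. Members, lists and motifs were chosen with earlier results of these data known. Genes named are the members, TLR2, all tested genes of lists with at most 8, otherwise the 6 called with the largest Wald scores, and a fixed set of pathway genes whatever their values; 1 gene of the interferon list is not reported here. Python 3.11.15, pandas 2.3.3, scipy 1.17.1 and Biopython 1.88 were used, and the tests were tested on simulated data.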

Additional observations from a re-analysis of the deposited data

How the results depend on the processing

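The count of CXC chemokines called higher was 5, and was 5 also without the filter on low counts, adjusted over 1 accession per gene and at a threshold of 0.01. It was 3 against a null of up to 1.5-fold, 3 with Wald scores scaled by their central spread and 3 relative to genes within 1 Mb, the genes lost being CXCL2 and CXCL3 each time. The count of genes called lower was 0 under all 6 alternatives. Over these, the adjusted p of CXCL5 was at most 2.28e-10, that of CXCL8 at most 1.52e-07 and that of CXCL10 at most 2.49e-11. The change of null alters what is tested. The local baseline rests on 4 genes for CXCL2, CXCL3 and CXCL5, on 2 for CXCL8 and on 8 for CXCL10, and it was taken as free of error. For the scaled scores the cause was not tested. CXCL16, without the filter, had an adjusted p of 0.936. No second accession of a member carried an adjusted p, so that choice gave no other value. Another normalization and leaving out replicates were not run. No paired analysis was possible because the table gives no value per library. Few reads limit CXCL2, CXCL3 and CXCL16.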

Other observations

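Tested genes outside the family whose promoters hold the strict NF-kB letters GGAATTTCC within 250 bases of the start number 25. Of these, 6 rose (24.0%) and 3 fell, beside 11.6% and 11.9% of all tested accessions, by the authors' deposited table, and their median log2 fold change was 0.11. The motif was picked with the CXC promoters in view, so the count is a description. Those that rose, named after their values were seen, were TNFRSF9, a costimulatory receptor (1.87, SE 0.24), OAS3, an antiviral sensor (1.09, SE 0.08), NFKBIZ (1.08, SE 0.37), ICAM1, the leucocyte adhesion molecule (0.85, SE 0.11), NFKBIA (0.83, SE 0.09) and MICAL3 (0.31, SE 0.10), as log2 fold changes from the authors' deposited table. Those that fell were CACHD1 (-1.11, SE 0.38), COL7A1, a collagen chain (-0.63, SE 0.11), and DUSP6, a phosphatase that limits ERK (-0.57, SE 0.10), on the same scale of that table. The looser letters GGNNNTTCC were held by 1398 tested genes outside the family, of which 217 rose (15.5%) and 148 fell. The interferon element was held by 469, of which 82 rose (17.5%) and 46 fell. The shares over all tested accessions are an unlike base, since the motif counts take a single accession per gene with a RefSeq promoter. The share over all tested genes with such a promoter was not computed, so no excess can be read from these counts.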
